A study of Homo sapiens with 6 samples.

Results

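MELTF and 9 of its neighbours in chromosome band 3q29 were examined, which are DLG1, BDH1, PIGZ, SENP5, NCBP2, PAK2, PIGX, CEP19 and TFRC. The 10 genes were chosen by name, as genes of the region around MELTF (older name MFI2), the gene whose antisense RNA is PLANE, a rule that uses no measured value. All 10 were among the 34957 genes of the tables, with 110 of 180253 transcripts, and all 10 passed the minimum mean level of 0.5 FPKM in both comparisons with the control. The question was whether transfection with siRNAs to an antisense RNA of this locus went along with other levels of the genes around it on the same chromosome.

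The cells were A549, an established line from a human lung adenocarcinoma, and RNA was sequenced 48 h after transfection. The groups were si-ctrl, si-PLANE.1 and si-PLANE.2, with 2 libraries each (replicates 1 and 2, 1 and 2, and 3 and 4). All 6 libraries thus come from transfected cells of 1 line, and both siRNAs are compared with the same 2 si-ctrl libraries. PLANE itself is not analysed here, and its knockdown is therefore not checked.

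Expected counts, which are estimates of the reads from each transcript and need not be whole numbers, summed to between 10572151 and 20778431 per library. All 8 listed epithelial markers of A549 cells reached 1 FPKM (a unit that divides fragments by transcript length and library depth). Of 5 leukocyte, 5 fibroblast and 3 endothelial markers in the tables, 2, 2 and 0 did, and CD3E was listed at 0 in every library. The si-PLANE.2 libraries stood apart in mRNAs of histones made without poly(A) tails. Summed over the 5 such genes matched, these reached 319 to 322 FPKM (si-ctrl), 148 to 222 FPKM (si-PLANE.1) and 2.54 to 3.07 FPKM (si-PLANE.2). The methods name both poly(A) isolation and rRNA removal without assigning them to libraries, so a difference in library preparation and an effect of si-PLANE.2 cannot be told apart in any comparison with si-PLANE.2.

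MELTF encodes melanotransferrin, an iron-binding protein of the transferrin family that is held at the cell surface by a glycosylphosphatidylinositol (GPI) anchor. Nearby genes encode the transferrin receptor (TFRC), through which cells take up iron, and 2 proteins of GPI anchor synthesis (PIGX and PIGZ). An antisense RNA can act in cis, on the gene it overlaps or on its neighbours, or in trans, on RNAs from other loci, and a comparison of neighbouring genes bears on the first of these.

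In the GRCh37 annotation the main MELTF transcript, MELTF-201, runs from 196756688 down to 196728611 on the minus strand of chromosome 3. The start of PIGZ lies 61.0 kb and that of NCBP2 87.4 kb from the start of MELTF, on the side of lower coordinates. SENP5 follows at 161.9 kb, PAK2 at 290.0 kb, PIGX at 317.4 kb, CEP19 at 317.6 kb and TFRC at 947.7 kb on the same side. DLG1 lies 267.9 kb and BDH1 526.2 kb away on the other side. The annotation places exons of antisense genes opposite exons of MELTF-201, of the main NCBP2 transcripts and of some DLG1 transcripts. Whether counting used the strand is not given in the sources used here, so for these transcripts reads from the other strand cannot be told apart.

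The exon joins that separate the transcripts discussed here were read from the GRCh37 genome, minus strand, as 15 bases on each side of the join. Lower case marks the exon before the join and capitals mark the exon after it. MELTF-201 and MELTF-202 leave the same exon (chr3:196748275-196748289 are its last bases) for different ones, so that MELTF-202 ends early:
MELTF-201, exons 6 and 7: tggagaacacggatgGGAAGACGCTTCCCT
MELTF-202, exons 6 and 7: tggagaacacggatgAAAGTCCATCACGAA
NCBP2-201 and NCBP2-202 enter the same exon (chr3:196666289-196666303 are its first bases) from different upstream exons:
NCBP2-201, exons 1 and 2: gaccagcacttccggGGTGACAATGAAGAA
NCBP2-202, exons 2 and 3: cgcatatagcagaggGGTGACAATGAAGAA
DLG1-203 and DLG1-219 leave the same exon (chr3:196921296-196921310 are its last bases), and DLG1-219 skips an exon of 99 bases that DLG1-203 holds:
DLG1-203, exons 5 and 6: atttcaccaataaagCCAACAGAAGCTGTT
DLG1-219, exons 5 and 6: atttcaccaataaagGCAAATCCTCCCCCA

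CEP19 and PIGX are transcribed away from each other from start sites 127 bases apart. The stretch between them, shown since both genes start from it, was taken from RefSeq (GRCh38.p14, chr3:196712230-196712397, plus strand), with the 126 bases between the start sites in capitals:
CEP19 and PIGX: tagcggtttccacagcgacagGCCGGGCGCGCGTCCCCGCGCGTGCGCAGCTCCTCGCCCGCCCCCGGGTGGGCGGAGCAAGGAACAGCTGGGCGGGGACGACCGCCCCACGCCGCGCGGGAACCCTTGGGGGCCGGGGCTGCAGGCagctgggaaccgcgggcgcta
The 250 bases before the MELTF start, the gene at the centre of the question, were taken from the same source (GRCh38.p14, chr3:197029818-197030067, minus strand). Capitals mark matches to the GC box GGGCGG on either strand, a motif bound by SP1 factors:
MELTF: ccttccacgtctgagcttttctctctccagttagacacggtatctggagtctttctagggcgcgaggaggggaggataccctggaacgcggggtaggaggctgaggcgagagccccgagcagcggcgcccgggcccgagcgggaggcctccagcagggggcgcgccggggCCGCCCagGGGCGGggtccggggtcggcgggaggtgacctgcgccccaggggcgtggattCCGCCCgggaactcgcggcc
GC boxes matched 3 times in these bases. In windows of 250 bases before to 50 bases after the start, 12 of the 15 windows of the 10 genes held the motif, as did 45.0% of the 35116 windows of all genes.

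In si-ctrl, on the FPKM scale, which divides by transcript length, NCBP2 had the highest gene total (66.7 ± 3.73 FPKM, SD, n = 2). DLG1 followed (54.3 ± 0.94 FPKM) and then TFRC (61.6 and 38.3 FPKM in its 2 libraries). MELTF came next (18.6 ± 0.0566 FPKM), before PAK2 (16.8 ± 1.81 FPKM), PIGX (10.1 ± 2.6 FPKM) and SENP5 (9.88 ± 0.304 FPKM). BDH1 (3.79 ± 0.113 FPKM), PIGZ (2.09 ± 0.0849 FPKM) and CEP19 (1.56 ± 0.0212 FPKM) were low. The 2 libraries of DLG1 and TFRC overlapped, as did those of PIGX and SENP5, and all other neighbours in this order were apart.

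With si-PLANE.1, none of the 10 genes passed the test against si-ctrl at an adjusted p of 0.05, and 0 of 10 had an unadjusted p under 0.05. The background was low, since 0.0344% of 14535 genes passed, 0.00688% higher and 0.0275% lower (edgeR quasi-likelihood test, Benjamini-Hochberg adjustment). DESeq2 called 0 of the 10 as well. Fitted log2 fold changes of the 10 genes ran from -0.21 for TFRC to 0.64 for PIGZ with a median of -0.0023, beside a median of 0.0018 over all genes. In 4 of the 10 genes the si-PLANE.1 libraries did not overlap si-ctrl, as in 42.6% of all genes. The libraries of a group are described as experimental repeats, with nothing on whether their cultures were separate, and p-values measure only the spread between them, which may be technical.

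With si-PLANE.2, 5 of the 10 genes passed, where 64.1% of 14168 genes did so. MELTF and TFRC rose, as did 31.8% of all genes, and DLG1, SENP5 and PAK2 fell, as did 32.3%. BDH1, PIGZ, NCBP2, PIGX and CEP19 did not pass. The median log2 fold change of the 10 genes was 0.05 and that of all genes was -0.03. In 6 of the 10 the si-PLANE.2 libraries did not overlap si-ctrl, as in 82.9% of all genes. Against si-PLANE.1, with all 6 libraries in one fit, the same 5 genes passed in the same directions, where 64.4% of 14440 genes passed (31.1% higher and 33.4% lower). The 2 comparisons share the si-PLANE.2 libraries.

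**Figure D1:**
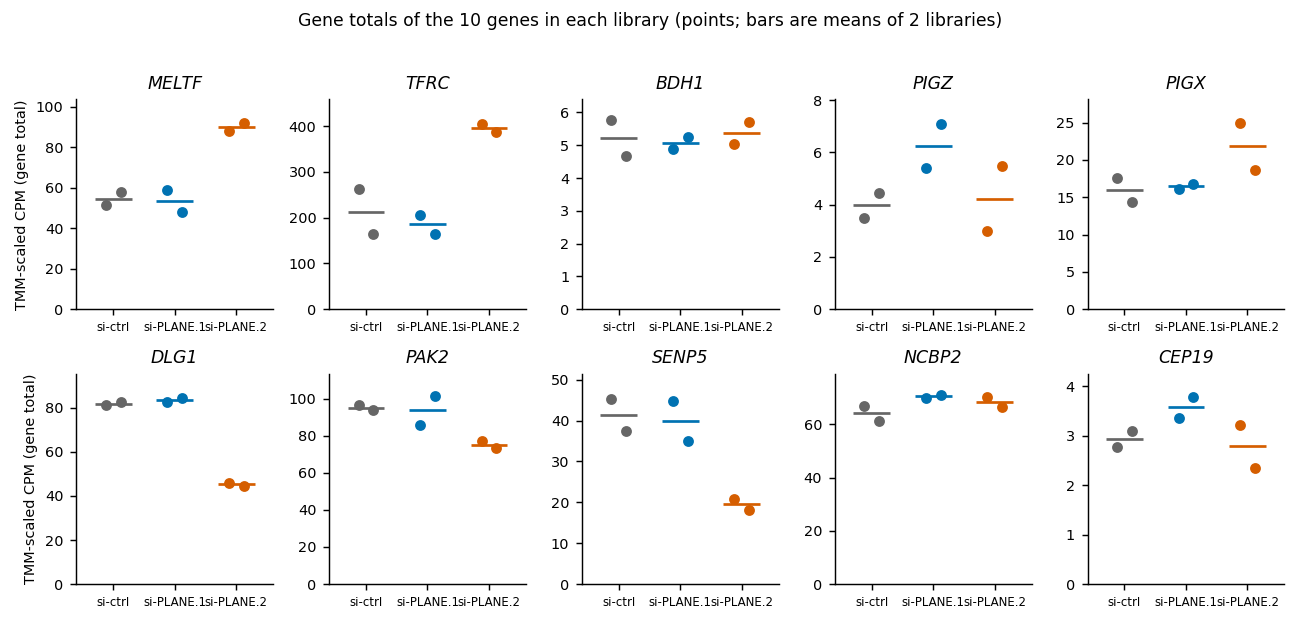
Gene totals of the 10 genes as CPM (counts scaled to the library size, here with TMM), with 1 point per library and a bar at the mean of the 2 libraries of each group (si-ctrl grey, si-PLANE.1 blue, si-PLANE.2 orange). MELTF and TFRC lie higher in both si-PLANE.2 libraries than in the other 4, and DLG1, PAK2 and SENP5 lie lower, while si-PLANE.1 and si-ctrl overlap or lie close together in these 5 genes.

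MELTF, the gene opposite PLANE, measured 51.2 and 57.8 (si-ctrl), 59.0 and 47.9 (si-PLANE.1) and 87.8 and 91.9 CPM (si-PLANE.2), where CPM are counts scaled to library size with TMM. The si-PLANE.1 libraries lay on both sides of the si-ctrl libraries, and the si-PLANE.2 libraries lay above all 4. The log2 fold change against si-ctrl was -0.03 with si-PLANE.1 (95% interval -0.39 to 0.33, adjusted p = 0.953). With si-PLANE.2 it was 0.71 ± 0.107 (SE), a 1.64-fold rise (interval 0.46 to 0.96, adjusted p = 0.000801). It differed between the siRNAs by 0.75 (adjusted p = 0.000858), a difference that did not pass on the TPM scale (0.24, limma adjusted p = 0.251).

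TFRC, the transferrin receptor, measured 263 and 164 (si-ctrl), 207 and 165 (si-PLANE.1) and 404 and 387 CPM (si-PLANE.2). The si-ctrl libraries were far apart, and both si-PLANE.2 libraries lay above them. The log2 fold change was -0.21 with si-PLANE.1 (adjusted p = 0.767) and 0.88 ± 0.20 (SE) with si-PLANE.2 (1.84-fold, adjusted p = 0.00614). The rise with si-PLANE.2 did not pass on the TPM scale (0.52, limma adjusted p = 0.126) or on the most abundant transcript alone (0.74, edgeR adjusted p = 0.0542).

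PIGX, a subunit of the enzyme that adds the first mannose of the GPI anchor, measured 17.6 and 14.3 (si-ctrl), 16.1 and 16.8 (si-PLANE.1) and 25.0 and 18.7 CPM (si-PLANE.2). The si-PLANE.2 libraries lay above the others, 1 of them narrowly. The log2 fold change with si-PLANE.2 was 0.44 (interval 0.0031 to 0.88, adjusted p = 0.0722), and without si-ctrl replicate 1 it passed (0.60, edgeR adjusted p = 0.000603). PIGZ, the enzyme that adds the last mannose in some anchors, measured 3.5 and 4.46 (si-ctrl), 5.39 and 7.09 (si-PLANE.1) and 3.0 and 5.47 CPM (si-PLANE.2). Its si-PLANE.1 libraries lay above si-ctrl and its si-PLANE.2 libraries overlapped both. The log2 fold change with si-PLANE.1, 0.64 (interval -0.03 to 1.30), had an unadjusted p of 0.0573 and an adjusted p of 0.502 in edgeR.

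BDH1, a mitochondrial enzyme of ketone body metabolism, measured 5.76 and 4.67 (si-ctrl), 4.88 and 5.25 (si-PLANE.1) and 5.05 and 5.72 CPM (si-PLANE.2). All 3 groups overlapped. Its log2 fold changes of -0.05 and 0.03 had intervals of -0.66 to 0.56 and -0.52 to 0.59.

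DLG1, a scaffold protein of epithelial polarity, measured 81.4 and 82.5 (si-ctrl), 82.6 and 84.6 (si-PLANE.1) and 45.8 and 44.7 CPM (si-PLANE.2). The 4 libraries of the first 2 groups lay within a narrow range and both si-PLANE.2 libraries lay far below it. Against si-ctrl its log2 fold change was 0.02 with si-PLANE.1 (interval -0.24 to 0.28, adjusted p = 0.958) and -0.87 ± 0.0962 (SE) with si-PLANE.2 (1.82-fold lower, adjusted p = 0.000178). The difference was larger on the FPKM scale, with means of 54.3 ± 0.94 (si-ctrl, SD, n = 2), 58.9 ± 2.76 (si-PLANE.1) and 16.5 ± 2.18 FPKM (si-PLANE.2; log2 fold change of FPKM + 1 -1.67, limma adjusted p = 0.000433).

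PAK2, a kinase of cytoskeletal signalling activated by the GTPases RAC and CDC42, measured 96.5 and 93.6 (si-ctrl), 86 and 101.4 (si-PLANE.1) and 77.4 and 73.1 CPM (si-PLANE.2). The si-PLANE.2 libraries were the lowest by a small margin. Its log2 fold change with si-PLANE.2 was -0.35 ± 0.0958 (SE, adjusted p = 0.0144). It did not pass without si-PLANE.2 replicate 3 (-0.39, edgeR adjusted p = 0.0849), without si-PLANE.2 replicate 4 (-0.31, adjusted p = 0.148) or on the FPKM scale (-0.06, limma adjusted p = 0.741).

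SENP5, a protease that removes SUMO from proteins, measured 45.3 and 37.5 (si-ctrl), 44.9 and 35.0 (si-PLANE.1) and 20.9 and 18.1 CPM (si-PLANE.2). The first 2 groups overlapped and the si-PLANE.2 libraries lay below both. Its log2 fold change was -0.06 with si-PLANE.1 (interval -0.47 to 0.35) and -1.10 ± 0.142 (SE) with si-PLANE.2 (2.14-fold lower, adjusted p = 0.000387), the largest change in size among the 10 gene totals in counts, whereas in FPKM that of DLG1 was larger.

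NCBP2, the small subunit of the nuclear cap-binding complex, measured 67.0 and 61.1 (si-ctrl), 69.8 and 71.1 (si-PLANE.1) and 70.3 and 66.4 CPM (si-PLANE.2). The si-PLANE.2 libraries overlapped si-ctrl and the log2 fold change was 0.08 (interval -0.16 to 0.32, adjusted p = 0.510). On the FPKM scale the direction turned, with 69.4 and 64.1 (si-ctrl), 75.9 and 76.1 (si-PLANE.1) and 40.3 and 35.0 FPKM (si-PLANE.2; log2 fold change of FPKM + 1 -0.81, limma adjusted p = 0.00283).

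CEP19, a protein of the centrosome and the ciliary base, was the lowest of the 10, at 2.77 and 3.09 (si-ctrl), 3.36 and 3.78 (si-PLANE.1) and 3.22 and 2.34 CPM (si-PLANE.2). Its si-PLANE.1 libraries lay above si-ctrl and its si-PLANE.2 libraries spanned si-ctrl. Its log2 fold changes were 0.28 (interval -0.45 to 1.00) and -0.09 (interval -0.82 to 0.65), both with wide intervals. Neither CEP19 nor PIGX, which start 127 bases apart, was called against si-ctrl.

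Set against si-PLANE.1, si-PLANE.2 differed in the 4 further genes called by 1.09 for TFRC (adjusted p = 0.00183), -0.88 for DLG1 (adjusted p = 6.09e-05), -1.03 for SENP5 (adjusted p = 0.000714) and -0.32 for PAK2 (adjusted p = 0.033). The PAK2 difference did not pass without si-PLANE.1 replicate 2 (-0.19, edgeR adjusted p = 0.181), without si-PLANE.2 replicate 3 (-0.36, adjusted p = 0.0961) or without si-PLANE.2 replicate 4 (-0.28, adjusted p = 0.178). Without si-PLANE.2 replicate 4, PIGX (0.60, adjusted p = 0.0406) and PIGZ (-1.05, adjusted p = 0.0467) passed. On the TPM scale TFRC did not pass (0.50, limma adjusted p = 0.145).

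The scale of the values shifts all genes in the si-PLANE.2 comparison. The median log2 fold change over all genes was -0.03 by edgeR, -0.22 on log2(FPKM + 1) and -0.37 on log2(TPM + 1). Of the genes called, 4512 were higher and 4571 lower by edgeR, against 3006 and 5105 on the FPKM scale and 2313 and 5773 on the TPM scale. MELTF stayed higher and DLG1 and SENP5 stayed lower, each past the threshold, on all 3 scales.

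Position in the band was then set beside the fold changes. With si-PLANE.2, of the 9 tested genes that start within 500 kb of MELTF, MELTF itself left out, 3 fell and 0 rose, with a median log2 fold change of -0.09. Of 20 tested genes farther away, 7 rose and 8 fell, with a median of -0.02. SLC51A, at 0 in both si-ctrl libraries, is among these 20. It passed the minimum level only through its si-PLANE.2 libraries and could lie only higher there. Of all genes, 31.8% rose and 32.3% fell, and the difference between near and far genes was not tested. The 2 nearest genes, PIGZ and NCBP2, were not called, and those on either side of them, MELTF and SENP5, moved in opposite directions. With si-PLANE.1, 0 of 9 and 0 of 19 genes were called, with medians of 0.02 and -0.02. In the map of fold changes along the band, called genes thus lie among uncalled ones at both ends.

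**Figure D2:**
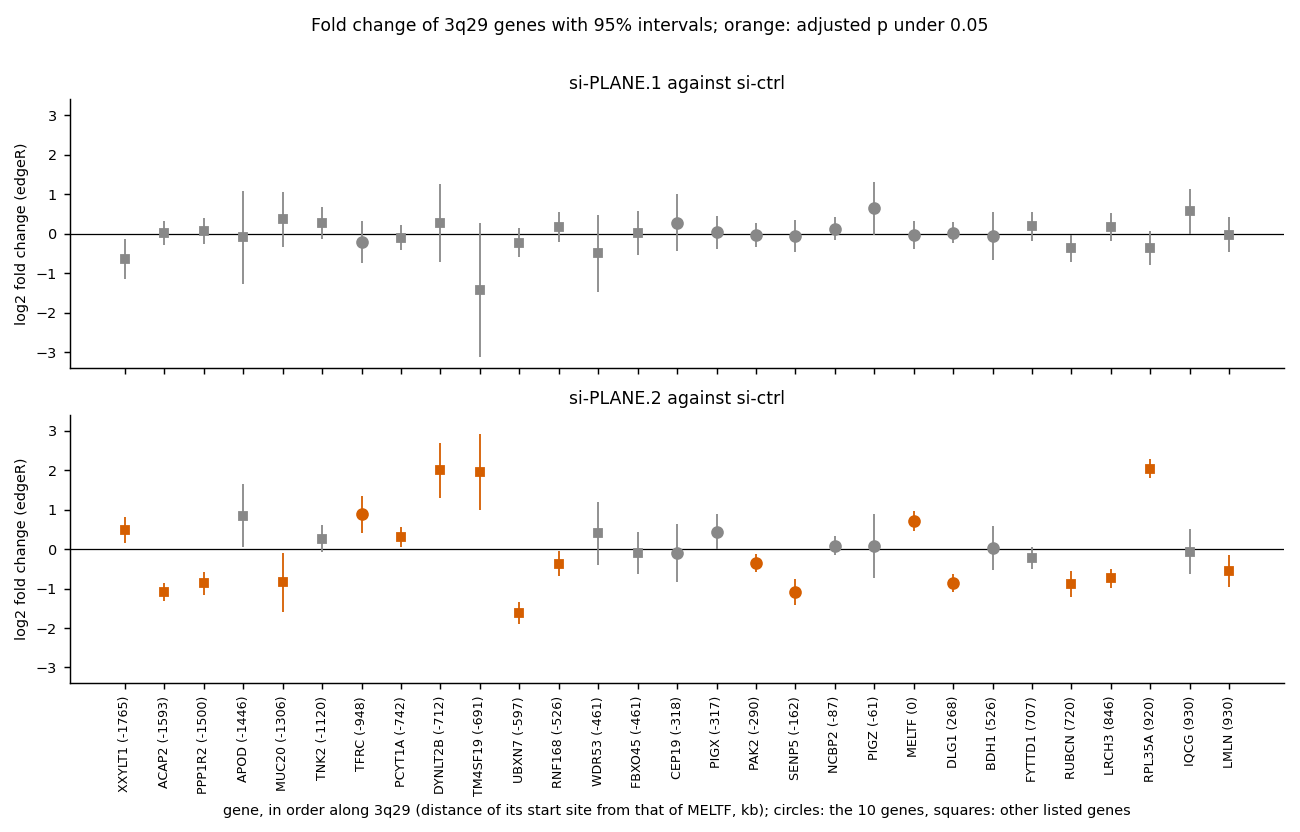
Log2 fold change with its 95% interval for the tested 3q29 genes, in their order along the chromosome, with the distance of each start site from that of MELTF in kb beside the name. Circles are the 10 genes, squares the other listed genes, orange marks an adjusted p under 0.05, and SLC51A, with no counts in either si-ctrl library, is left out. No gene is orange with si-PLANE.1 (upper panel). With si-PLANE.2 (lower panel) orange genes lie on both sides of 0 among those farther than 500 kb from MELTF. Nearer than that, MELTF is the only orange gene above 0, and 3 (DLG1, PAK2 and SENP5) lie below it.

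Among 24 other listed genes of the band, 20 were tested with si-PLANE.2, and 6 rose and 8 fell, with a median log2 fold change of -0.08. That is 70% called, beside 64.1% of all genes. SLC51A, at 0 in both si-ctrl libraries, is among the 20 and was tested only because of its si-PLANE.2 level (1.62 and 0.96 FPKM). RPL35A, a protein of the large ribosomal subunit, measured 69.4 and 68.2 (si-ctrl), 43.7 and 63.6 (si-PLANE.1) and 299.7 and 269.7 CPM (si-PLANE.2; log2 fold change 2.04, adjusted p = 8.34e-06). UBXN7, an adaptor of the p97 ATPase, fell by 1.62 on the log2 scale (adjusted p = 2.99e-05). ACAP2, a GTPase-activating protein of ARF6, fell by 1.08 (adjusted p = 7.14e-05). These 3 genes start 597.4 kb or more from MELTF. With si-PLANE.1, 0 of 19 such genes tested passed, and 2 had an unadjusted p under 0.05.

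MELTF and TFRC were also set beside genes of iron handling. With si-PLANE.2, 11 of 20 tested genes of this list rose and 3 fell, with a median log2 fold change of 0.47. The share called was 70%, beside 64.1% of all genes, and 31.8% of all genes rose. FTH1, the heavy chain of the iron store ferritin, measured 2441 and 2965 (si-ctrl), 1583 and 2143 (si-PLANE.1) and 6940 and 6910 CPM (si-PLANE.2; log2 fold change 1.35, adjusted p = 0.000101). PCBP1, an iron chaperone that also binds RNA, rose by 1.08 (adjusted p = 6.30e-05), and HMOX1, which frees iron from haem, rose by 0.78 (adjusted p = 0.000227). The mRNAs of ferritin heavy chain and of the transferrin receptor were thus both higher in these libraries in counts, and the rise of TFRC did not pass on the TPM scale. With si-PLANE.1, 0 of 20 passed and 3 had an unadjusted p under 0.05, with a median log2 fold change of -0.07.

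For PIGX and PIGZ the comparison list was GPI anchor synthesis, a pathway of the endoplasmic reticulum. With si-PLANE.2, 11 of 26 tested genes rose and 4 fell, with a median log2 fold change of 0.21. The share called, 57.7%, was below the 64.1% of all genes, and PIGX and PIGZ were not among those called. GPAA1, a subunit of the transamidase that attaches the anchor to proteins, measured 39.6 and 42.8 (si-ctrl), 46.6 and 45.0 (si-PLANE.1) and 114 and 122 CPM (si-PLANE.2; log2 fold change 1.50, adjusted p = 2.30e-05). PIGQ (1.39, adjusted p = 4.10e-05) and PIGC (0.98, adjusted p = 0.000225), both of the enzyme of the first step, rose as well. With si-PLANE.1, 0 of 26 passed and 1 had an unadjusted p under 0.05. By DESeq2, 0 genes of these 3 lists passed with si-PLANE.1. In an edgeR fit with a block by replicate number, genes of all 3 lists passed with si-PLANE.1, where 8.43% of all genes did.

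At the level of transcripts, 50 of the 110 transcripts of the 10 genes were tested in each comparison, and 23 were listed at 0 in every library. With si-PLANE.1, 0 of 50 passed, where 0% of 57625 transcripts did (edgeR), 0 of the 50 had an unadjusted p under 0.05, and DESeq2 called 0. With si-PLANE.2, 5 of 50 passed, where 25.6% of 56791 transcripts did. MELTF-201 and NCBP2-204 rose (12.9% of all transcripts) and DLG1-203, DLG1-219 and NCBP2-202 fell (12.7%). Without either of the 2 si-PLANE.2 libraries 0 passed, and the share of all transcripts called was then 0% without replicate 3 and 1.40% without replicate 4.

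MELTF-201, the full-length coding transcript, carried 81.2% and 83.7% of the counts of MELTF in si-ctrl, 83.7% and 75.5% in si-PLANE.1 and 87.5% and 89.2% in si-PLANE.2. Its level was 11.2 and 12.7 (si-ctrl), 14.2 and 10.0 (si-PLANE.1) and 17.9 and 19.1 FPKM (si-PLANE.2), with a log2 fold change of 0.90 with si-PLANE.2 (adjusted p = 0.0186). The si-PLANE.2 libraries lay above the other 4. MELTF-202, the form that ends early and whose exons face no annotated antisense exon, measured 4.01 and 2.15 (si-ctrl), 4.13 and 4.37 (si-PLANE.1) and 4.38 and 4.06 FPKM (si-PLANE.2; log2 fold change 0.75, adjusted p = 0.258). Its si-PLANE.1 and si-PLANE.2 libraries lay in the same range, and both si-ctrl libraries lay below them, 1 of them narrowly.

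MELTF-203, a short model with no annotated 3′ end, measured 0 and 0.44 (si-ctrl), 0 and 0 (si-PLANE.1) and 4.73 and 4.28 FPKM (si-PLANE.2), with adjusted p = 0.0553. It rests on 39.0 and 30.9 counts in the si-PLANE.2 libraries and at most 2.34 counts in the others. MELTF-206, a form that retains an intron (the fourth in level, named after its values were seen), measured 1.50 and 2.29 (si-ctrl), 1.59 and 2.17 (si-PLANE.1) and 0.46 and 0.41 FPKM (si-PLANE.2), with adjusted p = 0.0604. MELTF-208, the next such form in level, measured 0.51 and 0.95 (si-ctrl), 1.57 and 1.68 (si-PLANE.1) and 0.65 and 0.20 FPKM (si-PLANE.2), with adjusted p = 0.774. Neither intron-retaining form passed, and MELTF-208 overlapped si-ctrl.

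**Figure D3:**
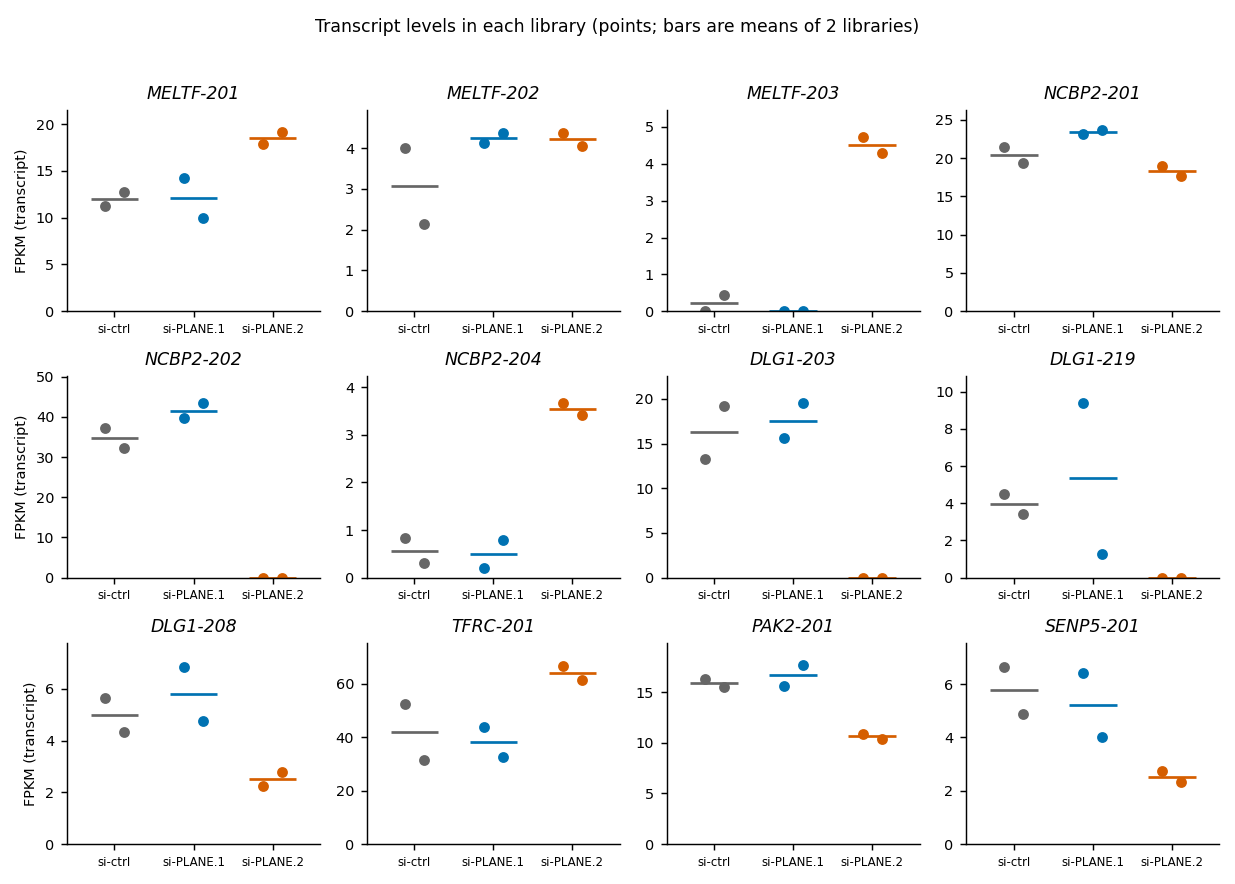
Level of 12 transcripts in FPKM, with 1 point per library and a bar at the mean of the 2 libraries of each group. MELTF-201 lies highest in si-PLANE.2, NCBP2-202, DLG1-203 and DLG1-219 are at 0 in both si-PLANE.2 libraries, and NCBP2-201 lies between 17.6 and 23.6 FPKM in all 6.

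NCBP2 split in another way. NCBP2-202, a model of 564 bases with no annotated 3′ end, was the transcript of NCBP2 with the highest mean FPKM, at 37.2 and 32.2 (si-ctrl) and 39.7 and 43.4 FPKM (si-PLANE.1), and was listed at 0 in both si-PLANE.2 libraries. Against a floor of 3 counts per library it was at least 56.5-fold lower (adjusted p = 0.0108). It held 17.3% and 16.8% of the counts of the gene in si-ctrl. NCBP2-201, of 2169 bases, measured 21.4 and 19.4 (si-ctrl), 23.2 and 23.6 (si-PLANE.1) and 19.0 and 17.6 FPKM (si-PLANE.2), and held 59.1% to 62.2% of the counts of the gene in every library. The level of NCBP2-201 thus stayed close while the short model dropped out, which lowers the gene total in FPKM far more than in counts.

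Of the other NCBP2 transcripts, NCBP2-207 measured 3.50 and 3.53 (si-ctrl) and 7.17 and 7.27 FPKM (si-PLANE.2; log2 fold change 1.34, adjusted p = 0.0538). NCBP2-204, named after its values were seen since it passed, measured 0.84 and 0.30 (si-ctrl), 0.20 and 0.80 (si-PLANE.1) and 3.67 and 3.41 FPKM (si-PLANE.2; log2 fold change 2.96, adjusted p = 0.0408). Its share of the counts of the gene was 10.3% and 10.1% in si-PLANE.2 and at most 2.12% in the other libraries. With all 6 libraries in one edgeR fit it did not pass (adjusted p = 0.051).

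**Figure D4:**
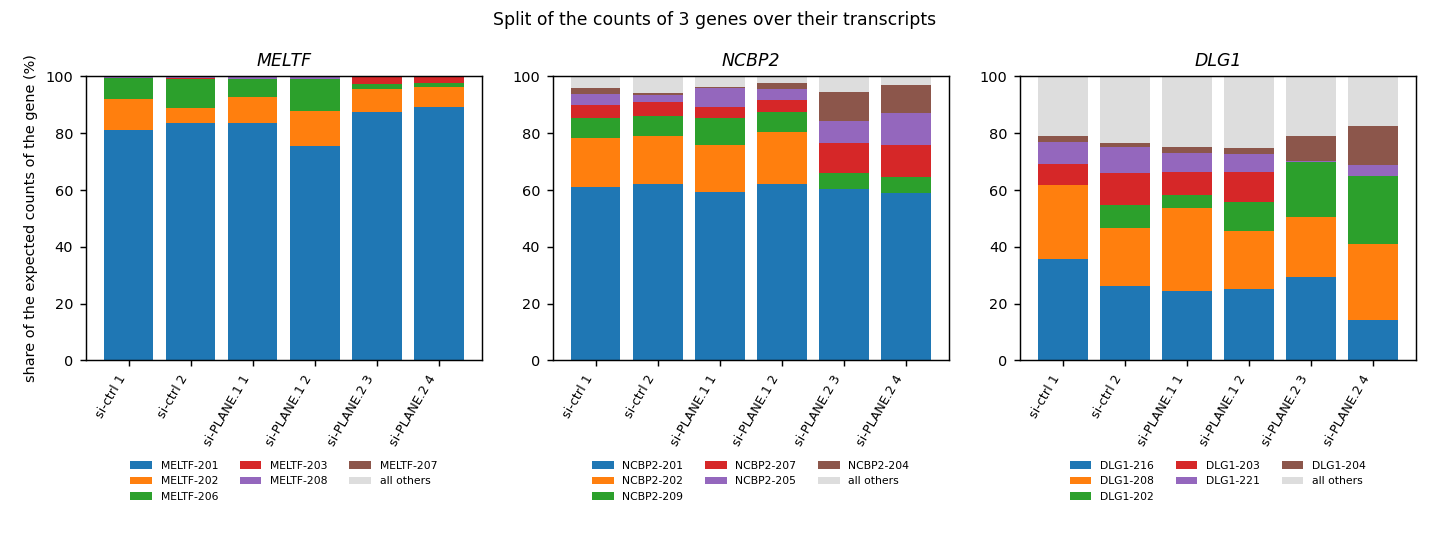
Share of the expected counts of MELTF, NCBP2 and DLG1 that each of their 6 transcripts with the highest shares took in each library, in percent, with all other transcripts in grey. MELTF-201 and NCBP2-201 hold the largest share in all 6 libraries, the bars of NCBP2-202 and DLG1-203 vanish in both si-PLANE.2 libraries, and those of NCBP2-204 and DLG1-202 are widest there.

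DLG1 drew its counts from many forms, with 13 transcripts tested in each comparison. DLG1-203, of 716 bases and with no annotated 3′ end, had the highest mean FPKM, at 13.3 and 19.2 (si-ctrl), 15.6 and 19.5 (si-PLANE.1) and 0 and 0 FPKM (si-PLANE.2; at least 39.4-fold lower, adjusted p = 0.0148). DLG1-219, which lacks the exon of 99 bases and was named after its values were seen, measured 4.5 and 3.4 (si-ctrl), 9.37 and 1.29 (si-PLANE.1) and 0 and 0 FPKM (si-PLANE.2; at least 7.77-fold lower, adjusted p = 0.0339). Both forms, with and without that exon, were thus at 0 in the same libraries. The DLG1-219 call was also lost without si-ctrl replicate 1 (edgeR adjusted p = 0.105) or replicate 2 (adjusted p = 0.0913).

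Of the longer DLG1 forms, DLG1-216 measured 12.1 and 8.70 (si-ctrl), 8.94 and 9.06 (si-PLANE.1) and 4.79 and 2.26 FPKM (si-PLANE.2), with adjusted p = 0.112. DLG1-208 measured 5.65 and 4.33 (si-ctrl) and 2.23 and 2.79 FPKM (si-PLANE.2), with adjusted p = 0.110. Both were below si-ctrl in both si-PLANE.2 libraries without passing. Fewer forms lay higher there, also without passing, and DLG1-204 and DLG1-202 were named after their values were seen. DLG1-204 measured 0.65 and 0.43 (si-ctrl) and 1.34 and 2.09 FPKM (si-PLANE.2), with adjusted p = 0.0588, and DLG1-202 measured 0 and 1.44 (si-ctrl) and 1.62 and 1.98 FPKM (si-PLANE.2), with adjusted p = 0.544. DLG1-212, DLG1-221, DLG1-223 and DLG1-224, also named after their values were seen, lay below si-ctrl in both si-PLANE.2 libraries without passing. The tested DLG1 forms thus lay more often below si-ctrl than above it, and the 2 that passed were lower.

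The main transcripts of the other genes called held most of the counts. TFRC-201 held 88.9% to 96.8% of the counts of TFRC and measured 52.4 and 31.4 (si-ctrl), 44 and 32.7 (si-PLANE.1) and 66.8 and 61.3 FPKM (si-PLANE.2), with adjusted p = 0.0779. A further TFRC transcript, ENST00000535031, ranged from 0 to 1.94 FPKM in the first 4 libraries and reached 5.31 and 11.9 FPKM in si-PLANE.2 (adjusted p = 0.207). PAK2-201 held at least 96.1% of the counts of PAK2 and measured 16.3 and 15.5 (si-ctrl), 15.6 and 17.7 (si-PLANE.1) and 10.9 and 10.4 FPKM (si-PLANE.2), with adjusted p = 0.114. PAK2-202, of 689 bases, was at 0 to 1.73 FPKM in the first 4 libraries and at 5.42 and 5.40 FPKM in si-PLANE.2. In FPKM its higher value offset the lower one of PAK2-201, and the gene total stayed at 16.4 and 15.8 FPKM in si-PLANE.2 beside 18.1 and 15.5 FPKM in si-ctrl.

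SENP5-201 measured 6.65 and 4.88 (si-ctrl), 6.4 and 4.03 (si-PLANE.1) and 2.73 and 2.33 FPKM (si-PLANE.2), with adjusted p = 0.0556. SENP5-204, of 2491 bases, measured 1.92 and 2.39 (si-ctrl), 3.65 and 4.77 (si-PLANE.1) and 0.01 and 0.29 FPKM (si-PLANE.2), with adjusted p = 0.157. Both forms were lowest in the si-PLANE.2 libraries, and the shorter one was nearly at 0 there without passing.

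The main transcripts of the low genes varied within groups. PIGX-202 was listed at 0 in si-ctrl replicate 2 and in si-PLANE.1 replicate 1 and reached 6.20 FPKM elsewhere. The other PIGX forms of the same level, PIGX-204 and ENST00000314118, ranged from 1.60 to 3.48 FPKM and from 0 to 5.11 FPKM. BDH1-207 measured 0.61 to 2.25 FPKM, PIGZ-202 0.80 to 1.97 FPKM and CEP19-202 0.97 to 1.99 FPKM over the 6 libraries. PIGX-202 rested on 71.6 to 364.1 counts in the 4 libraries in which it was above 0. Where it was at 0, ENST00000314118, of 3018 bases beside 3057, held 173.9 (si-ctrl replicate 2) and 156.7 counts (si-PLANE.1 replicate 1). In si-PLANE.2 replicate 3 ENST00000314118 was at 0 and PIGX-202 held 364.1 counts. The part of read assignment between forms in such zeros was not tested.

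Features of the transcript models, which the choice of genes did not use, were set beside the changes with si-PLANE.2. All 3 transcripts that passed and fell are models whose 3′ end the annotation marks as not found, while the 2 that rose have one. Of 9 tested models of the 10 genes without a 3′ end, these 3 were at 0 in both si-PLANE.2 libraries and above 0 in both si-ctrl libraries. Among all tested transcripts the same held for 11.5% of 5133 models without a 3′ end and for 6.09% of 45543 models with one. Of 39 tested models of the 10 genes with a 3′ end it held for 2, TFRC-206 and TFRC-207, on at most 8.81 counts in a library, and neither passed. DLG1-217, which has a 3′ end, was below the minimum level in this comparison and was not tested. It had 32.2 and 31.8 counts in si-ctrl and 0 in both si-PLANE.2 libraries. ENST00000314062 of DLG1, absent from the annotation and also untested, had 76.1 and 37.5 counts in si-ctrl and 0 in both. Both forms were named after their values were seen. Losses on more than a few counts were thus not limited to models without a 3′ end. The share of all transcripts that fell was 12.1% without a 3′ end and 12.8% with one. The 11 tested forms of the 10 genes that retain an intron all had a fitted log2 fold change below 0 with si-PLANE.2, and 0 of them passed. Of 10275 such forms tested over all genes, 69.6% lay below 0, 14.8% fell and 4.61% rose. With si-PLANE.1, 7 of 15 such forms lay below 0, beside 47.2% of all. The part of the library preparation in these shares was not tested.

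The 3 genes whose level was most like that of MELTF over the 6 libraries, by Pearson correlation of log2(FPKM + 1) among 13274 genes with a mean of at least 1 FPKM, were MEX3D (0.9989), MED29 (0.9982) and AEN (0.9981). MEX3D measured 2.03 and 1.86 (si-ctrl), 3.19 and 1.83 (si-PLANE.1) and 5.13 and 5.54 FPKM (si-PLANE.2). All 3 were highest in the si-PLANE.2 libraries, which set these correlations, and 10.9% of genes had a correlation over 0.9.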

How the data were processed

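RNA-seq of A549 cells 48 h after transfection was analysed, with 2 libraries each of si-ctrl, si-PLANE.1 and si-PLANE.2, grouped by the sample labels. For every transcript the authors deposited raw expected counts, and beside them FPKM values, scaled by the authors to transcript length and library depth. Per the labels and the submitters' processing notes, Trimmomatic 0.30, HISAT2 2.0.1 and HTSeq 0.6.1 were used with hg19 (GRCh37), and the tool behind the expected counts is not given in the sources used here. Expected counts were rounded, summed per gene over transcripts with a gene identifier (16723 of 180253 transcripts had none and held 3.028% to 3.624% of the counts) and tested with edgeR 4.0.16 (TMM, glmQLFit, glmQLFTest) in R 4.3.3, each siRNA against si-ctrl in its own fit and si-PLANE.2 against si-PLANE.1 with all 6 libraries. Features with a mean of at least 0.5 FPKM were tested, and Benjamini-Hochberg adjusted p-values under 0.05 were called. Standard errors were derived as the fold change over the root of F.

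Alternatives were DESeq2 1.42.0, limma 3.58.1 on log2(FPKM + 1), log2(FPKM + 0.1) and log2(TPM + 1), where TPM was computed from FPKM, other scalings and filters, leaving out each library, a block by replicate number (si-PLANE.1 only), the most abundant transcript of each gene and, for transcripts, an unadjusted p with a log2 fold change over 1. Of 34957 gene identifiers, 33692 matched a symbol. Transcript names and exons came from GENCODE v44lift37, in which 105 of the 110 transcripts were found, 85 with the same length. The script was tested on simulated data. The text names the 10 genes, up to 3 main transcripts of each with a mean of at least 0.5 FPKM, the 3 called genes with the lowest p in each of the other lists (24 genes of 3q29, 23 of iron handling and 27 of GPI anchor synthesis in the tables), and the 3 genes most like MELTF. The members and lists were chosen with earlier results of these data known. With 2 libraries per group precision is low, and PLANE was not analysed here.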

Additional observations from a re-analysis of the deposited data

Results flagged for a closer look

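The fold change against si-ctrl differed between the 2 siRNAs for 5 of the 10 genes, by the test of si-PLANE.2 against si-PLANE.1 in one edgeR fit of all 6 libraries (adjusted p under 0.05), a test that 64.4% of all genes passed. The log2 difference was 0.75 for MELTF, 1.09 for TFRC, -0.88 for DLG1, -1.03 for SENP5 and -0.32 for PAK2. Histone mRNAs without a poly(A) tail differed between the same libraries, with a summed level of 148 to 222 FPKM in si-PLANE.1 and 2.54 to 3.07 FPKM in si-PLANE.2, and the part of this in the 5 differences was not tested. Groups of 2 libraries were too small for a test of single libraries that stand apart.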

How the results depend on the processing

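Under the alternatives, 162 of 182 values of the main results, 463 of 524 for single genes and 112 of 155 for single transcripts were unchanged. A fold change was taken as unchanged if it kept its direction and its side of the threshold. The main results are mostly counts of genes or transcripts called, and a count was taken as unchanged if equal or close to the main count. Small shifts in such a count were thus not marked as changes. MELTF with si-PLANE.2 passed under all 14 alternatives, with log2 fold changes of 0.44 to 0.81 (0.63 to 0.81 without single libraries). The count of the 10 genes called stayed at 0 with si-PLANE.1 under all its alternatives. With si-PLANE.2 it was 4 on log2(TPM + 1) and on the most abundant transcript, where 57.1% and 51.0% of all genes passed. Against si-PLANE.1 it was 4 and 6 under these settings, where 59.8% and 54.1% passed. It was unchanged under the other alternatives that kept both libraries of each group compared.

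Replicate numbers are shared between si-PLANE.1 and the controls, but with only 2 pairs they were not taken to pair the samples. The differences between replicates 1 and 2 of these groups correlated with r = 0.38 across 14535 genes. With a replicate block 1225 genes passed in place of 5 (125 by DESeq2). MELTF stayed at -0.04 and 0 of the 10 genes and 0 of their transcripts passed under the block, while 2 other 3q29 genes, 2 iron handling genes and 1 GPI anchor gene did. The si-PLANE.2 libraries carry other numbers and allow no block.

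The number of transcripts of the 10 genes called with si-PLANE.2 moved with the setting, as did the share of all transcripts, 25.6% in the main fit. It was 8 at a minimum of 2 FPKM (47.4% of all transcripts) and 13 by DESeq2 (33.3%). With limma it was 16 on log2(FPKM + 1) (37.8%), 15 on log2(FPKM + 0.1) (35.5%) and 16 on log2(TPM + 1) (37.9%). By unadjusted p with a log2 fold change over 1 it was 12, and the share of all transcripts was not computed for that rule. That of the other 3q29 genes was 9 to 16 without single libraries.

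Some fold changes that did not pass in the main fits changed sign. Among them, the gene total of NCBP2 with si-PLANE.2 passed as lower with limma on all 3 scales. With si-PLANE.1 on log2(FPKM + 1), log2(FPKM + 0.1) and log2(TPM + 1), MELTF was at 0.13, 0.13 and 0.20, SENP5 at 0.16, 0.18 and 0.24 and PAK2 at 0.051, 0.053 and 0.12. PAK2 was at 0.0034 with upper-quartile scaling and TFRC at 0.020 on log2(TPM + 1). With si-PLANE.2 on the same 3 scales, BDH1 was at -0.054, -0.069 and -0.19, PIGZ at -0.12, -0.21 and -0.25, NCBP2 at -0.81, -0.83 and -0.97 and NCBP2-201 (ENST00000321256) at -0.15, -0.15 and -0.30. At a minimum of 2 FPKM, BDH1 was at -0.017 and NCBP2-201 at -0.033, and with the most abundant transcript BDH1 was at -0.53 and NCBP2 at -0.027. For si-PLANE.2 against si-PLANE.1, BDH1 was at -0.046 and PIGX at -0.15 on log2(TPM + 1), and BDH1 at -0.18 with the most abundant transcript. Without single libraries, ranges with si-PLANE.1 were -0.19 to 0.11 for MELTF, -0.19 to 0.12 for BDH1, -0.24 to 0.11 for SENP5, -0.15 to 0.091 for PAK2, -0.11 to 0.20 for PIGX and -0.51 to 0.18 for TFRC. With si-PLANE.2 they were -0.10 to 0.19 for BDH1, -0.42 to 0.45 for PIGZ and -0.34 to 0.12 for CEP19, and against si-PLANE.1 -0.0037 to 0.18 for BDH1. In NCBP2 the short transcript NCBP2-202, at 0 in si-PLANE.2, weighs more in FPKM than in counts, and for the others the cause was not tested. Floors of 3 counts cover counting error only.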
